A study of Mus musculus with 7 samples.

Results

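Wnt proteins are secreted signals, and their strength in a tissue is set by the ligands, by R-spondins that amplify them and by secreted antagonists that hold them back. Here 10 such genes were followed in mouse liver: the ligands Wnt2, Wnt4, Wnt5a and Wnt9b, the R-spondins Rspo1 and Rspo3, and the antagonists Sfrp1, Sfrp2, Sfrp5 and Dkk3. They were taken by symbol from the 37620 genes of the counts table, where each of the 10 matched 1 row. RNA of whole liver was sequenced from C57BL/6 mice after 30 weeks of Western diet. Of the 7 libraries, 4 belong to the group whose total bile acids were high (H-TBA, libraries H1 to H4) and 3 to the group where they were low (L-TBA, libraries L1 to L3), and the series' title speaks of spontaneous cholemia. Strain, diet and its length were the same in both groups. The labels used here give neither age nor sex, nor whether every library had its own animal, so a p-value reflects only how these libraries vary, which may be technical.

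In the normal lobule, endothelial cells of the central vein and of the nearby sinusoids release Wnt2, Wnt9b and Rspo3. These signals keep β-catenin active in the hepatocytes beside the vein, which express glutamine synthetase and much of the drug-metabolising machinery. R-spondins bind Lgr receptors and take the ubiquitin ligases Znrf3 and Rnf43 off the membrane, which spares the Frizzled receptors. Secreted Frizzled-related proteins (Sfrp) carry a Frizzled-like domain that binds Wnt proteins, and Dkk3 is a divergent member of the Dickkopf family. Dkk3 is counted here among the antagonists, and whether it holds back Wnt signals in these livers was not tested.

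The upstream promoter sequence of 6 of the 10 genes was matched in RefSeq (build GRCm38.p6): Wnt2, Wnt4, Wnt9b, Rspo1, Sfrp2 and Sfrp5. The first entry listed for each of them was used, and other annotated starts of these genes, if any, were not examined. Shown are the 250 bases before the annotated start, 5′ to 3′ on the gene's strand, for a pair of ligands of the central vein whose groups overlapped (Wnt2 and Wnt9b) and for the ligand and the antagonist of this set whose groups lay apart (Wnt4 and Sfrp5). Capitals mark matches, on either strand, to the short motifs searched. The core bound by TCF and LEF factors was searched as CTTTGA. For the site of GATA factors the letters were AGATAA. The TATA box was taken to be TATAAA, and for the GC box the search used GGGCGG.
Wnt2, chr6:18030446-18030695, minus strand: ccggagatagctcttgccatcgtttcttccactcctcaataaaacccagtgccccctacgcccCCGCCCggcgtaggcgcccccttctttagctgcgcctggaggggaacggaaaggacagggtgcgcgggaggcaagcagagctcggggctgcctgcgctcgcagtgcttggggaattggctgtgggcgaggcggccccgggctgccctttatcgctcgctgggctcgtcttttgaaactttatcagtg
Wnt9b, chr11:103749822-103750071, minus strand: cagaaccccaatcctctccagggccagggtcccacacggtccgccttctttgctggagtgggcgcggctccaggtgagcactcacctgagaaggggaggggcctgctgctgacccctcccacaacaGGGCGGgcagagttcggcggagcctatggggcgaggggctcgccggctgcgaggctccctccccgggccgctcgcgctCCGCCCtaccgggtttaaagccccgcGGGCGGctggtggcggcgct
Wnt4, chr4:137277385-137277634, plus strand: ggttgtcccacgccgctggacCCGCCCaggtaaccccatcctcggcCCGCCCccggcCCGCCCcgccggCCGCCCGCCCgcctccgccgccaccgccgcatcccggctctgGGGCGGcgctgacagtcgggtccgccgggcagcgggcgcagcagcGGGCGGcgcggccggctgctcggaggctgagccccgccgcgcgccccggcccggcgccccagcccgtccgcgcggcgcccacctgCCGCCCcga
Sfrp5, chr19:42202253-42202502, minus strand: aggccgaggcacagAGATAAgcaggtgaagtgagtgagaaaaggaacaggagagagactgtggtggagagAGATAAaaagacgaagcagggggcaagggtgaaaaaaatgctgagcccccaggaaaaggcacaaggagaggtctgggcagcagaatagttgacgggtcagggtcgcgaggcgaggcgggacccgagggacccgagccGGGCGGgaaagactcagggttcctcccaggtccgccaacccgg
The Wnt4 window was 85.2% G and C and held 8 matches to the GC box, some of them overlapping, against 1 in Wnt2, 3 in Wnt9b and 1 in Sfrp5. Of all 32851 windows of this length that were searched, 32.7% held at least 1 GC box. The share with as many matches, or as rich in G and C, was not counted, and a link to expression was not tested. Sfrp5 held 2 matches to the GATA site, which 9.99% of windows had. None of these 4 windows, nor those of Rspo1 and Sfrp2, held CTTTGA (13.8% of windows) or TATAAA (12.4%), which says only that these letters are not in these windows.

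Library totals ran from 9996990 to 12152613 counts, and levels are given as CPM, the counts scaled to library size, after TMM scaling. The hepatocyte product albumin stood at 37121 CPM on average in H-TBA and 41021 in L-TBA. Of 6 tested hepatocyte markers 0 were higher by edgeR, DESeq2, limma-voom or an unadjusted p under 0.05 (1 with library totals), and edgeR called Ttr and Apob lower, which are named after their values were seen. The summed level of the list was 54794 to 61807 CPM in H-TBA and 62730 to 70266 CPM in L-TBA. On the first principal component, which held 64.7% of the variance, H1 lay at -10.7, between the other H-TBA libraries (-43.5 to -34.6) and L-TBA (36.8 to 45.2). Of the 10 genes, 6 had enough counts for the edgeR quasi-likelihood test, and Wnt9b, Rspo1, Sfrp2 and Sfrp5 did not. Of the 6, 4 were higher in H-TBA at a Benjamini-Hochberg adjusted p under 0.05 and 0 were lower, where 23.9% of all 15249 tested genes passed, 13.1% as higher and 10.7% as lower. No tested member was lower by DESeq2 or limma-voom either, nor at an unadjusted p under 0.05 (0 in each). The 4 were Wnt4, Wnt5a, Sfrp1 and Dkk3, and all 4 also passed when H1 was left out. The median log2 fold change over the 6 was 1.10, beside 0.0049 over all tested genes. Scaling by library totals moved the median of all genes to 0.16 and the share of calls that were higher from 55.1% to 78.9%, and left the calls of these 6 genes as they were.

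**Figure D1:**
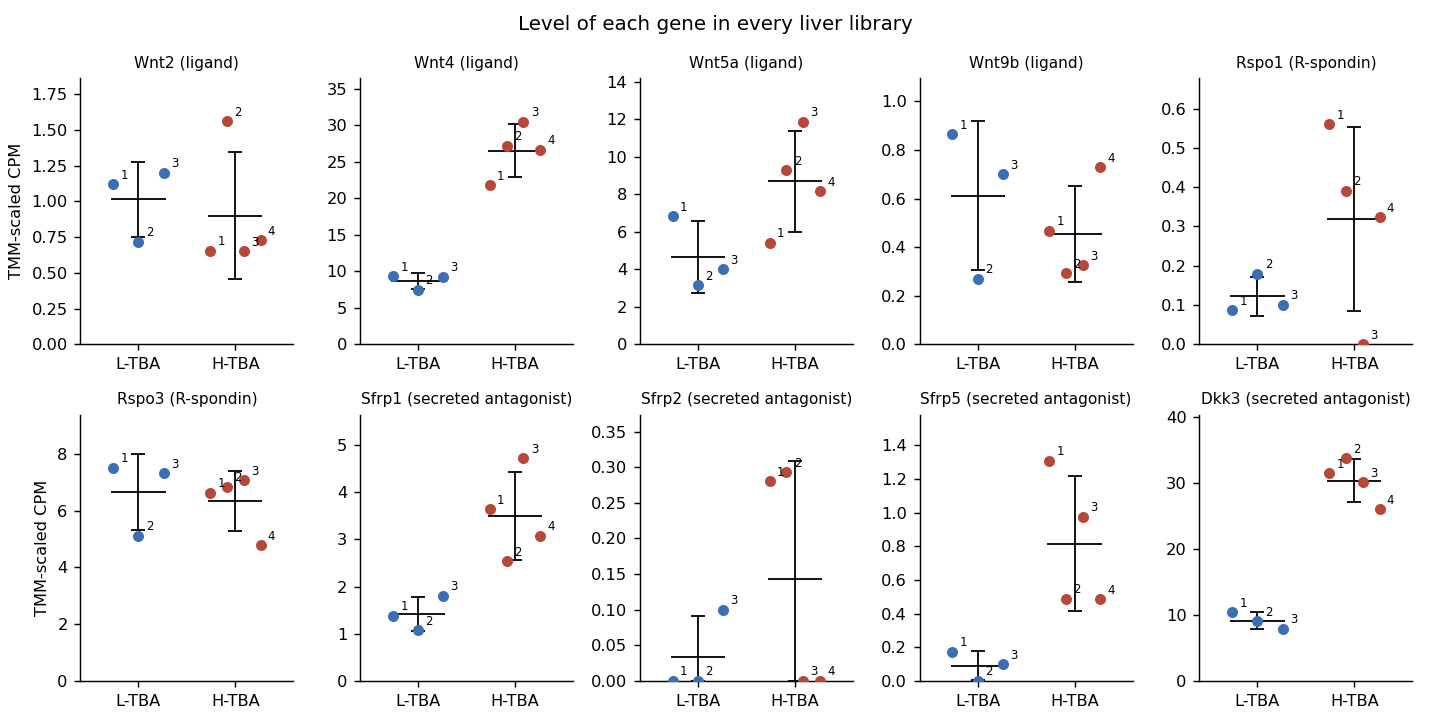
TMM-scaled CPM (vertical axes, each from 0) of the 10 genes in every library, numbered by replicate; bars give the mean ± SD of 3 L-TBA and 4 H-TBA libraries, cut at 0. Wnt4, Sfrp1, Sfrp5 and Dkk3 have every H-TBA point above every L-TBA point, while Wnt2, Wnt9b and Rspo3 overlap.

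Of the 4 ligands, Wnt4 had the highest counts and rose about 3-fold, Wnt5a rose less evenly, and the central vein ligands Wnt2 and Wnt9b overlapped between the groups. Wnt4 (ENSMUSG00000036856), a ligand that can signal with or without β-catenin, stood at 21.8, 27.2, 30.5 and 26.6 CPM in H1 to H4 and at 9.33, 7.45 and 9.22 CPM in L1 to L3. All H-TBA libraries lay above all L-TBA libraries, and H1 was the lowest of its group. The mean went from 8.66 ± 1.05 (SD, n = 3) to 26.5 ± 3.60 CPM (SD, n = 4), and the log2 fold change was 1.61 ± 0.14 (SE; edgeR adjusted p = 8.95e-05).

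Wnt5a (ENSMUSG00000021994) signals mostly without β-catenin, through the receptors Ror1, Ror2 and Frizzled, and is made by mesenchymal cells in many tissues. It had 5.42, 9.28, 11.9 and 8.17 CPM in H-TBA and 6.82, 3.14 and 4.01 CPM in L-TBA. The groups overlapped, because H1 lay below L1. The log2 fold change of 0.89 ± 0.30 (SE) passed the edgeR threshold narrowly, with an adjusted p of 0.0496. Leaving out H2, H3, H4, L2 or L3 ended the call (adjusted p = 0.102, 0.126, 0.0876, 0.171 and 0.141), as did DESeq2 size factors (0.0506) and a robust fit (0.0583), and over the alternatives the edgeR, limma and DESeq2 adjusted p ran from 0.00951 to 0.171. In the GENCODE annotation an antisense gene shares 358 bases of exon with Wnt5a, and without a known strand setting reads of the pair cannot be told apart.

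Wnt2 (ENSMUSG00000010797) was counted only 7 to 16 times per library. It had 0.654, 1.56, 0.651 and 0.728 CPM in H-TBA and 1.12, 0.718 and 1.20 CPM in L-TBA. H2 held the highest value of all 7 libraries, and the other 3 H-TBA libraries sat near or below the lowest L-TBA library. The log2 fold change was -0.19 ± 0.40 (SE), with a 95% interval from -1.08 to 0.69 and an edgeR adjusted p of 0.774. That interval runs from 0.474-fold to 1.62-fold, so a moderate change was not detectable at this depth.

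Wnt9b (ENSMUSG00000018486), the other Wnt ligand of the central vein, was rarer still, with 3 to 10 counts per library. Its values were 0.467, 0.293, 0.325 and 0.728 CPM in H-TBA and 0.864, 0.269 and 0.701 CPM in L-TBA, and the ranges lay almost on top of each other. Summed over libraries, 21 counts of Wnt9b in the 4 H-TBA libraries stood against 20 in the 3 of L-TBA. After scaling the ratio was 0.753, with an exact 95% Clopper-Pearson interval from 0.389 to 1.46. Such intervals cover counting error only.

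Rspo3 (ENSMUSG00000019880), the R-spondin of central vein endothelium, had 6.63, 6.84, 7.07 and 4.77 CPM in H-TBA and 7.51, 5.12 and 7.31 CPM in L-TBA. Each group held 1 low library and the rest lay close together, whichever the group. The means were 6.33 ± 1.05 (SD, n = 4) and 6.65 ± 1.33 CPM (SD, n = 3), and the log2 fold change was -0.07 ± 0.20 (SE; edgeR adjusted p = 0.828). The 95% interval ran from -0.50 to 0.36, that is from 0.706-fold to 1.28-fold, so for Rspo3 a change of 2-fold lies outside it in both directions. The sign of this small difference turned with library totals (0.085) and on leaving out H4 or L1 (0.044 and 0.029). An antisense gene shares 404 bases of exon with Rspo3.

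Rspo1 (ENSMUSG00000028871), another secreted amplifier of Wnt signals, was near the limit of detection. It had 6, 4, 0 and 4 counts in H-TBA and 1, 2 and 1 in L-TBA. The 0 in H3 allows up to 0.244 CPM, which is above every L-TBA value, so the groups cannot be ordered at this depth. The ratio of summed counts was 2.51, with a counting interval from 0.788 to 10.5.

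**Figure D2:**
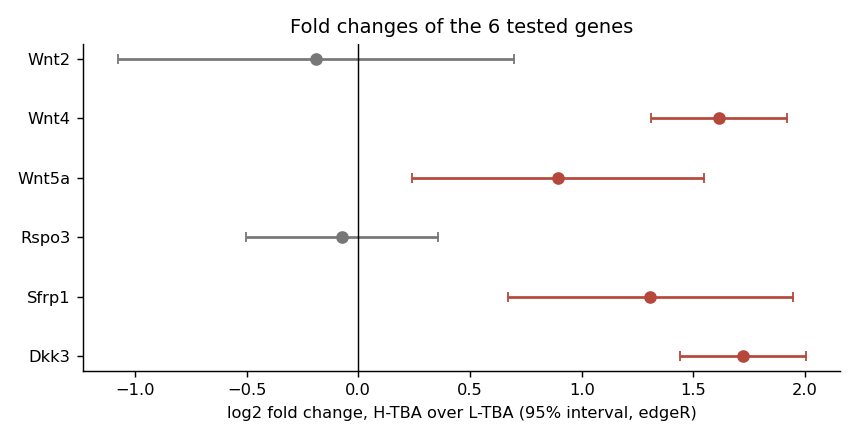
Log2 fold change of H-TBA over L-TBA (horizontal axis) with its 95% interval from edgeR for the 6 tested genes; red points passed an adjusted p of 0.05 and grey points did not. Wnt4, Dkk3 and Sfrp1 lie clear of 0, Wnt5a has a lower bound of 0.24, and the intervals of Wnt2 and Rspo3 span 0.

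Of the 4 antagonists, Sfrp1 and Dkk3 had enough counts for the test, and both rose. Dkk3 (ENSMUSG00000030772) had the largest fold change of the 6 tested genes. Its values were 31.5, 33.7, 30.1 and 25.97 CPM in H-TBA and 10.5, 9.06 and 7.91 CPM in L-TBA. The lowest H-TBA library was above every L-TBA library by more than the whole spread of either group. The mean rose from 9.14 ± 1.27 (SD, n = 3) to 30.3 ± 3.26 CPM (SD, n = 4), and the log2 fold change was 1.72 ± 0.13 (SE; edgeR adjusted p = 5.19e-05).

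Sfrp1 (ENSMUSG00000031548), which binds Wnt ligands outside the cell, had 3.64, 2.54, 4.72 and 3.07 CPM in H-TBA and 1.38, 1.08 and 1.80 CPM in L-TBA. The groups did not overlap, although the gap between H2 and L3 was small. The log2 fold change was 1.31 ± 0.29 (SE), with an edgeR adjusted p of 0.00789; over the alternatives, DESeq2 and limma-voom included, the adjusted p ran from 0.00214 to 0.0379. Among the 6 tested members 3 had groups that did not overlap, all with H-TBA above, where 33.5% of all tested genes did not overlap and 17.2% had H-TBA above.

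Sfrp5 (ENSMUSG00000018822), a close relative of Sfrp1, was counted 14, 5, 12 and 6 times in H-TBA and 2, 0 and 1 times in L-TBA. Every H-TBA library exceeded every L-TBA library, at levels from 0.485 to 1.31 CPM against 0.173, 0 and 0.100 CPM, where the 0 in L2 allows up to 0.269 CPM. The ratio of summed counts was 8.85 with a counting interval from 2.80 to 44.8. Sfrp5 missed the filter on low counts, and an exact permutation test of its CPM gave a two-sided p of 0.0571, the smallest that 4 against 3 libraries allow. With no filter its edgeR log2 fold change was 3.003 ± 0.75 (SE; adjusted p = 0.00766), a value that depends on how low counts are handled.

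Sfrp2 (ENSMUSG00000027996) was barely detected, with 3, 3, 0 and 0 counts in H-TBA and 0, 0 and 1 in L-TBA. The 0 in H3, H4, L1 and L2 allows up to 0.244, 0.243, 0.259 and 0.269 CPM. These limits lie close to the highest values seen, 0.280 CPM in H1 and 0.293 CPM in H2, and no difference could be detected. The ratio of 4.30 had a counting interval from 0.522 to 198. An antisense gene shares 347 bases of exon with Sfrp2.

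Levels of different genes were compared only after division by exon length (CPM per kb, from GENCODE gene models, which may differ from those behind the counts). On that scale Dkk3 led in H-TBA at 9.02 ± 0.970 (SD, n = 4), followed by Wnt4 at 6.32 ± 0.858, Rspo3 at 2.05 ± 0.341 and Wnt5a at 1.11 ± 0.342, and each of the first 3 lay above the next in every library. From Wnt5a down to Sfrp1, Sfrp5, Wnt2, Rspo1, Wnt9b and Sfrp2, each neighbour overlapped the next. In L-TBA the first places were closer: Dkk3 at 2.72 ± 0.378 (SD, n = 3), Rspo3 at 2.15 ± 0.431 and Wnt4 at 2.07 ± 0.251 overlapped in turn. Wnt5a at 0.595 ± 0.246 and Wnt2 at 0.450 ± 0.115 came next and also overlapped. Rspo3 was thus level with Wnt4 in L-TBA and below it in every H-TBA library, with Rspo3 itself little changed.

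Among all 19 mouse Wnt genes, the summed length-scaled level was 5.82 to 7.22 CPM per kb in L-TBA and 11.3 to 17.0 in H-TBA. Wnt4 made up 31.1% ± 1.12 (SD, n = 3) of this sum in L-TBA and 43.1% ± 2.20 (SD, n = 4) in H-TBA. Wnt2 made up 5.47% to 7.39% in the L-TBA libraries and 1.69% to 4.61% in the H-TBA libraries, and these ranges did not overlap even though those of its own level did. Wnt9b went from a mean of 1.99% to 0.702%, and Wnt5a held 8.91% and 7.41%. Shares of a sum fall when other genes rise, so they describe the mixture of ligands and not the level of any one of them. Wnt5b, a ligand outside the 10 genes, was the largest part in L-TBA at 40.7% ± 3.58 and held 22.8% ± 5.14 in H-TBA.

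**Figure D3:**
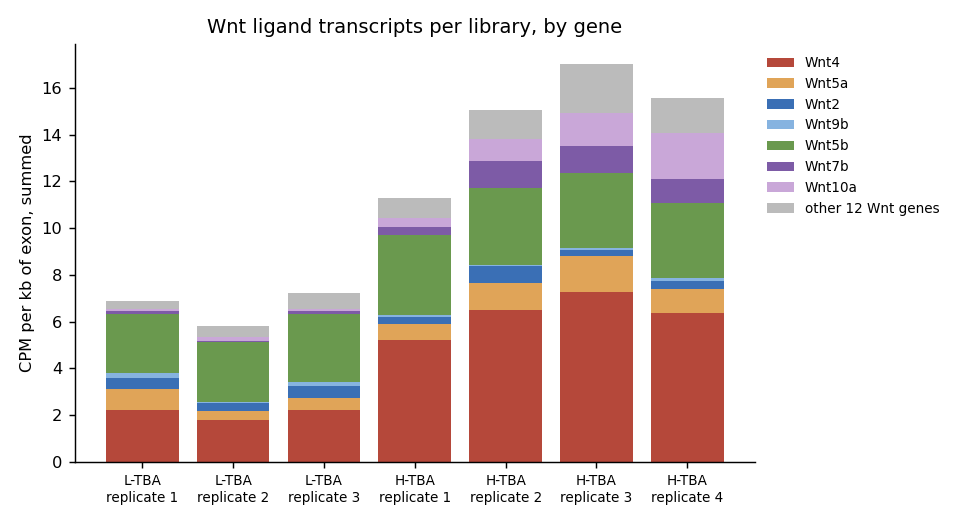
Length-scaled transcript level (CPM per kb of exon) of the Wnt ligand genes, stacked by gene, in each of the 3 L-TBA and 4 H-TBA libraries. The stacks reach 5.82 to 7.22 in L-TBA and 11.3 to 17.0 in H-TBA, and the Wnt4 segment is the thickest in all 4 H-TBA libraries.

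Most of the family outside the 10 genes lay below the filter on counts. Of 15 other Wnt ligands, Wnt1, Wnt3, Wnt3a and Wnt8b had no count in any library and 5 were tested, of which 3 rose and 0 fell (0 also by DESeq2, by limma-voom and at an unadjusted p under 0.05): Wnt7b, Wnt10a and Wnt7a, ligands of epithelia. Their log2 fold changes by edgeR were 3.22 ± 0.49, 3.51 ± 0.63 and 3.46 ± 0.64 (SE), from L-TBA means of 0.487, 0.244 and 0.154 CPM. The list's median of 3.22 is one over tested genes only, which had to be high in H-TBA to be tested at such low L-TBA levels. Of 15 other R-spondins and antagonists, 3 were tested and 0 passed edgeR, DESeq2 or limma-voom (1 had an unadjusted p under 0.05): the Wnt deacylase Notum, which is itself a Wnt target, Frzb and the IGF-binding Igfbp4. Notum was at 36.4 ± 2.65 CPM in H-TBA and 30.1 ± 3.32 CPM in L-TBA, a log2 fold change of 0.27 ± 0.10 (SE; edgeR adjusted p = 0.0648), and it passed only with library totals or on leaving out L2 (adjusted p = 0.0134 and 0.0389).

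Of 11 genes that a cell needs to secrete or present Wnt proteins, 4 rose, 2 fell and 5 did not pass (median log2 fold change 0.13), beside 13.1% higher and 10.7% lower over all tested genes. Wls, the carrier that takes Wnt proteins to the cell surface, rose from 14.2 ± 0.835 to 25.8 ± 3.92 CPM (log2 fold change 0.86 ± 0.13, edgeR adjusted p = 0.00094). The heparan sulfate proteoglycans Gpc3 and Sdc1 rose by 1.73 and 0.62 on the log2 scale, and Porcn, which acylates Wnt proteins, was at 0.55 ± 0.21 and did not pass (edgeR adjusted p = 0.0816; 0.0307 with library totals). The 2 that fell were the retromer subunits Vps26a and Vps29. The count of falls became 1 on leaving out H2, H3, H4, L1 or L2, 0 on leaving out L3 and 3 on leaving out H1, and library totals gave 5 rises and 0 falls.

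Of 26 receptors and membrane regulators 21 were tested, 6 rose, 2 fell and 13 did not pass (median 0.19, with 13.1% of all tested genes higher and 10.7% lower), and library totals gave 10 and 1; leaving out L1 gave 1 fall. Fzd2, Fzd1 and the Wnt5a receptor Ror1 rose, by 2.41 ± 0.32, 0.77 ± 0.15 and 0.89 ± 0.18 (SE) on the log2 scale, as did Reck, a cofactor of Wnt7 signalling, by 1.11 ± 0.21. Fzd2 had 3 to 6 counts in the L-TBA libraries and 23 to 26 in H-TBA, and Gpc3 had 6 to 8 in L-TBA. Fzd3, another of the 6 rises, is named after its values were seen and had 0 to 2 counts in L-TBA and 3 to 13 in H-TBA. Fzd2, Gpc3 and Fzd3 passed the filter on counts only through the group where they were high. Fzd4, a Frizzled of endothelial cells, fell from 20.3 ± 2.43 to 13.7 ± 1.176 CPM, and Rnf43 fell by 0.53 ± 0.12 (edgeR adjusted p = 0.0103), which did not pass on leaving out L1 (adjusted p = 0.0579) or with library totals (0.0541). For the R-spondin receptors, Lgr4 was at -0.03 ± 0.12 and turned sign with library totals (0.13), and on leaving out H3, H4 or L3 (0.040, 0.012 and 0.099). Lgr5 was at -0.68 ± 0.28 (edgeR adjusted p = 0.106) and passed on leaving out H1 (-1.03, adjusted p = 0.0022) and with limma-voom (adjusted p = 0.014). Znrf3, the other ubiquitin ligase that R-spondins remove, was at 0.29 ± 0.13 and did not pass (edgeR adjusted p = 0.119; 0.0432 with library totals).

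Inside the cell, 5 of 27 pathway components rose, a share not far from the 13.1% over all tested genes, and 0 fell by edgeR (median 0.13; 1 fell by DESeq2, by limma-voom and at an unadjusted p under 0.05). Rises numbered 8 when H1 was left out, 3 when H3, H4 or L1 was, and 13 with library totals. The co-repressor gene Tle1 and the kinase gene Csnk1e rose by 0.55 and 0.61 on the log2 scale, and Ctnnb1, which encodes β-catenin, was at 0.27 ± 0.10 (SE) and did not pass edgeR (adjusted p = 0.0676), but passed DESeq2 (adjusted p = 0.0316), limma-voom, library totals and the fit that left out H1. Of 18 tested genes of planar polarity and non-canonical signalling, the branch that Wnt5a feeds, 5 rose, 13 did not pass and 0 fell by edgeR (median 0.33, beside 13.1% of all tested genes higher; 0 fell by DESeq2, 1 by limma-voom and 1 at an unadjusted p under 0.05). Rises numbered 8 when H1 was left out and with library totals. Ptk7, Daam2, Celsr1 and Celsr2 rose, by 1.84, 1.08, 0.75 and 1.43 on the log2 scale.

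Among 20 tested targets of β-catenin signalling 10 fell, 1 rose and 9 did not pass (median -0.60), and library totals gave 9 falls and 4 rises. Over all tested genes 10.7% fell and 13.1% rose. Tbx3, a transcription factor and direct target, fell from 33.7 ± 7.11 to 15.04 ± 3.57 CPM, and the pericentral Glul fell from 1622 ± 109 to 419.9 ± 158 CPM (edgeR adjusted p = 0.00115 and 0.0003). Cyp2e1 and Oat fell as well. Axin2, a feedback target in most cell types, was at -0.33 ± 0.19 (SE) and did not pass (edgeR adjusted p = 0.238). Of the 20, 13 had a negative log2 fold change and 7 a positive one, with Notum (0.27) and Znrf3 (0.29) on the positive side. Notum, Znrf3, Rnf43 and Lgr5 also stand in the lists above, so the fall of Rnf43 is counted here and among the receptors. The 1 that rose was Ccnd1, and 2 rose when H1, L1 or L2 was left out. Ccnd1 and Vps29 were named after their values were seen.

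**Figure D4:**
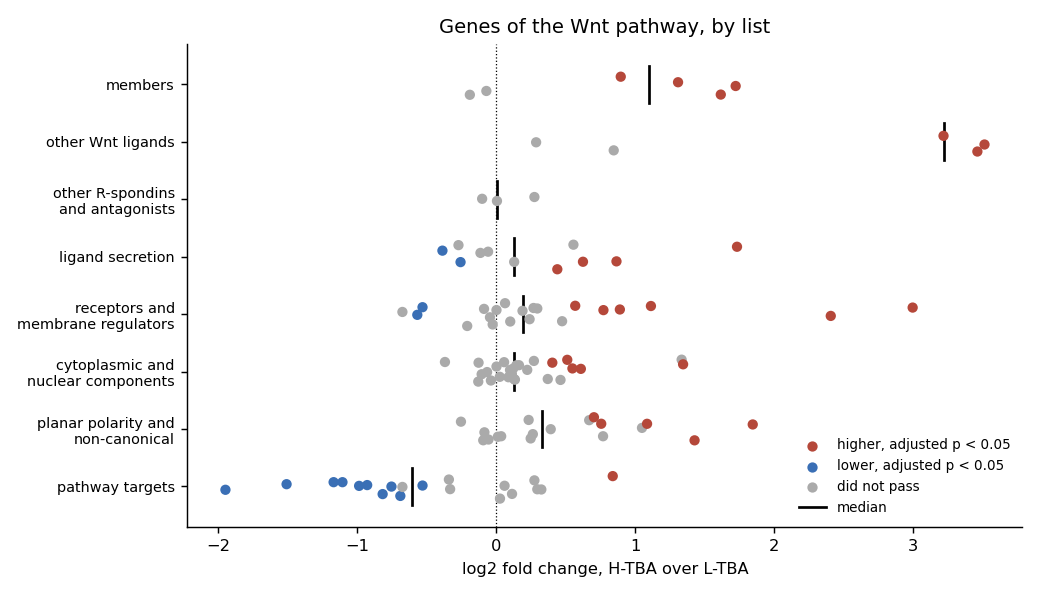
Log2 fold change (horizontal axis) of each tested gene in the Wnt pathway lists, 1 point per gene, with the list's median as a black bar; red passed as higher, blue as lower and grey did not pass. Points of the target list lie mostly below 0, and 4 of the 6 tested members are red and above 0. The 3 red points of the other ligands, and those of Fzd2, Fzd3 and Gpc3, passed the filter on counts only through H-TBA.

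Markers of other liver cell types were counted in the same libraries, and in bulk liver fewer cells of a type and less RNA per cell cannot be told apart. Over all tested genes 13.1% were higher and 10.7% lower by edgeR. For the central vein endothelium, 0 of 8 markers passed edgeR in either direction. At an unadjusted p under 0.05, 3 were higher and 0 lower, DESeq2 called 1 and limma-voom 2 as higher, and library totals 2. The summed level was 83.4 to 108.6 CPM in H-TBA and 87.3 to 89.1 CPM in L-TBA. Of the 8, 4 had a positive log2 fold change and 4 a negative one. Kit and Thbd, on the positive side, were at 0.77 ± 0.27 and 0.41 ± 0.25 (SE), and Selp and Lhx6, on the negative side, at -0.70 and -0.31. Markers of sinusoidal endothelium, the other source of Wnt2 and Rspo3, fell in 10 of 12 tested genes (6 with library totals), and their sum was 230.4 to 269 CPM in H-TBA and 345 to 392 CPM in L-TBA. Stab2 and Lyve1 of that list fell by 0.80 and 1.29 on the log2 scale. Wnt2 and Rspo3 did not pass in the same libraries, and the part of endothelial cell numbers in their levels was not tested.

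Several other lists had members that were higher in H-TBA, where 13.1% of all tested genes were higher and 10.7% lower. All 11 bile duct markers rose, with a sum of 997 to 1934 CPM in H-TBA against 472 to 747 CPM in L-TBA, and Krt19 rose from 6.04 ± 1.81 to 49.6 ± 17.9 CPM. Of 11 tested portal fibroblast markers 9 rose and 0 fell, with sums of 233.9 to 292 CPM and 98.2 to 133 CPM. The rise of Cd34 is counted here and again among the vascular endothelial markers below. Of 5 tested mesothelial markers 4 rose. Krt19, which duct cells share, was set apart after its values were seen. Without Krt19 the mesothelial sums were 20.004 to 25.4 CPM in H-TBA and 7.60 to 11.1 CPM in L-TBA. Msln rose from 0.407 ± 0.217 to 2.29 ± 0.525 CPM. With 2 to 6 counts in the L-TBA libraries and 19 to 37 in H-TBA, Msln passed the filter on counts only through H-TBA. Stellate cell markers were split, with 6 higher and 4 lower of 13, and general vascular endothelial markers were higher in 7 and lower in 1 of 11 (median log2 fold change 0.98). Aplnr of the vascular list had 2 to 4 counts in L-TBA and 14 to 48 in H-TBA, and passed the filter only through H-TBA. Ackr1 of that list missed the filter, with 5 to 10 counts in H-TBA and 10 to 19 in L-TBA. Both are named after their values were seen. Vwf stands in the vascular and the central vein list. No listed marker was at 0 in all libraries, and the part of these cell types in the rise of Wnt4, Wnt5a, Sfrp1 and Dkk3 was not tested.

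**Figure D5:**
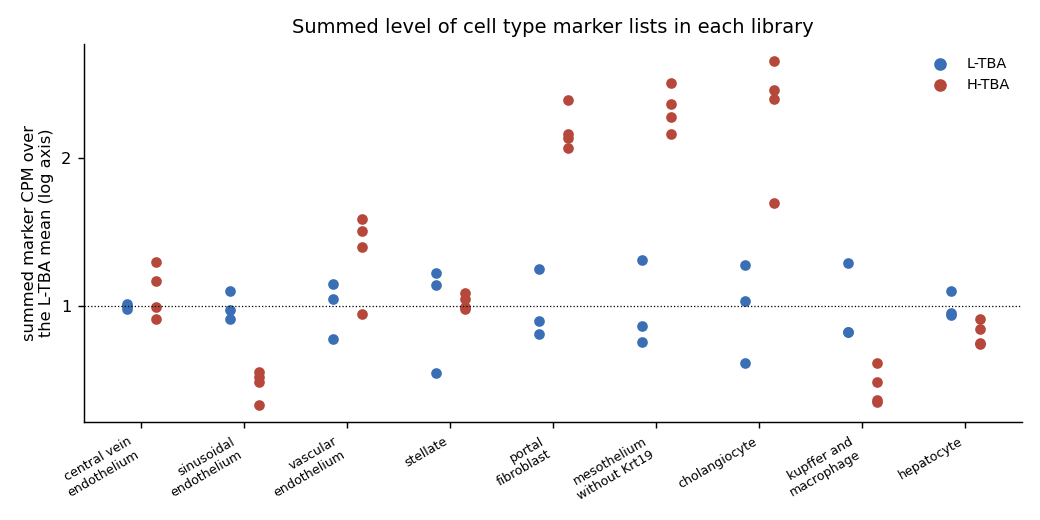
Summed CPM of each cell type marker list in every library, divided by the L-TBA mean of that list (log axis); blue points are the 3 L-TBA and red points the 4 H-TBA libraries. Portal fibroblast, mesothelial and bile duct lists lie above 1 in all H-TBA libraries, the sinusoidal list lies below 1, and the central vein list straddles 1.

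H1, which had the lowest bile duct sum of its group, also had the lowest Wnt4 and Wnt5a of the 4 H-TBA libraries. H1 was not the lowest for Sfrp1, which was lowest in H2 (2.54 CPM), or for Dkk3, which was lowest in H4 (25.97 CPM). The summed level of smooth muscle markers was 67.6 CPM in H1, 23.8 to 26.3 CPM in H2 to H4 and 18.8 to 28.8 CPM in L-TBA. Whether the cell content of H1 relates to its Wnt4 and Wnt5a was not tested. Likeness was taken as the smallest root mean square difference in centred log2 CPM over the 7 libraries. This measure includes the group difference, so genes of similar fold change come out near (log2 fold change 1.62 for Tmem229a and 0.88 for Fbn1). A shared cell source or regulation was not tested. The genes most like Wnt4 were Tmem229a (0.0733) and Lrrc1 (0.0800), and those most like Wnt5a were the matrix genes Fbn1 (0.105) and Col4a2 (0.124). Dkk3 was nearest to Wnk4 (0.151) and Fmo2 (0.158), and Sfrp1 to Gnb5 (0.119). Rspo3 lay nearest to Gm49340 (0.0697) and Mrm3 (0.0782), and Wnt2 to Dse (0.183) and Fzd8 (0.185).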

How the data were processed

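Bulk RNA sequencing of whole liver gave 7 libraries (4 H-TBA, 3 L-TBA); livers were flash frozen and RNA was extracted with Trizol, per the labels' protocols. The deposited values are whole-number counts for each Ensembl gene, not normalized by the authors. CASAVA, TopHat2 2.0.11, DESeq2 1.18.1 and mm9 are listed, without roles, by the submitters' processing notes. How reads were counted, with which strand setting and annotation, is not given in the sources used here. Symbols were matched by Ensembl identifier for 32897 of 37620 rows. Exon lengths came from GENCODE M21 and promoters from RefSeq, both on GRCm38, so coordinates are given only for the promoter windows, on their own build.

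Genes were kept by filterByExpr (minimum count 10, total 15), scaled by TMM and tested over all 15249 genes with the quasi-likelihood test of edgeR 4.0.16 (R 4.3.3), group as the only term, Benjamini-Hochberg threshold 0.05. Standard errors were derived from the fold change and the F statistic. Log2 CPM used a prior count of 2. The members and lists were chosen with earlier results of these data known. Named genes were all 10 members, up to 4 genes per pathway list with the smallest adjusted p, a fixed set of receptors, targets and cell markers, and the 2 genes nearest to each tested member. 1 of these neighbours is left out of the text. On simulated counts for the 15249 genes, of which 200 were changed, 82% of 2-fold and 95% of 4-fold changes were recovered. Of the calls there, 6.84% were false. In the real comparison 23.9% of tested genes passed, so these rates may differ there. No pair of libraries in a group agreed within sampling noise (lowest chi-square per degree of freedom 5.64). Alternatives were DESeq2 1.42.0, limma-voom (limma 3.58.1), other scalings and filters, a robust fit, a block for the replicate number, and leaving out each library with the tested genes kept.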

Additional observations from a re-analysis of the deposited data

Results flagged for a closer look

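Of 54 named genes with counts, 2 had a library that stood apart from the other 3 of the H-TBA group, and chance alone flags about 1 group in 20. Wnt2 was at 1.56 CPM in H2, where the next highest library was at 0.728; without that library its log2 fold change was -0.57, and it did not pass there either. Lgr5 was at 6.26 CPM in H1, where the next highest was at 3.25.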

How the results depend on the processing

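Wnt4, Sfrp1 and Dkk3 stayed higher at an adjusted p under 0.05 in all 15 alternatives other than the block, and Wnt5a in 8 of 15. Members called higher numbered 3 to 4 on leaving out each library and 5 with no filter, which added Sfrp5. Library totals gave 3117 genes higher and 832 lower in place of 2003 and 1635. Leaving out each library gave 1450 to 2439 higher and 1028 (without L1) to 2128 lower. Library totals gave 1 rise among the other R-spondins and antagonists, 0 falls among secretion genes, 10 rises and 1 fall among receptors, 13 rises among cytoplasmic components, 4 among targets and 8 in the planar list. With no filter, 1 secretion gene fell. DESeq2, limma-voom, DESeq2 size factors, no filter and the robust fit each gave 1 fall among cytoplasmic components, and limma-voom 1 in the planar list.

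Over the fits that left out each library, the other antagonists had 0 to 1 rises, secretion genes 0 to 3 falls, receptors 1 to 3 falls, cytoplasmic components 3 to 8 rises and 0 to 1 falls, targets 1 to 2 rises, and the planar list 4 to 8 rises and 0 to 1 falls. Small log2 fold changes turned sign. Rspo3 was at 0.085 and Frzb at 0.060 with library totals, and Lgr4 at 0.13. Igfbp4 was at -0.0032 with DESeq2, -0.035 with limma-voom and -0.0031 with DESeq2 size factors. On leaving out each library, Rspo3 ran from -0.23 to 0.044, Frzb from -0.31 to 0.23, Igfbp4 from -0.068 to 0.063 and Lgr4 from -0.087 to 0.099. The cause was not tested. Counts of Wnt9b, Rspo1, Sfrp2 and Sfrp5 were too low for the filter, so depth limits what can be said of them.

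The replicate numbers did not pair the libraries: same-numbered libraries correlated at -0.103, -0.0589 and -0.0627 in their deviations. With the number as a block, 1166 genes were higher and 754 lower, 3 members were higher (Wnt5a adjusted p = 0.160 by edgeR), 0 secretion genes and 1 receptor fell, 2 cytoplasmic components, 0 targets and 3 planar genes rose, and Rspo3 and Lgr4 were at 0.055 and 0.013.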
